A study of Mus musculus with 6 samples.

Results

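The RNAs described here are transcribed from the mitochondrial genome, which every cell carries in many copies beside its nuclear chromosomes. Of the 37 genes annotated on the mouse mitochondrial chromosome, 10 were chosen by name: the ribosomal RNA genes mt-Rnr1 and mt-Rnr2 and the protein-coding genes mt-Nd1, mt-Nd2, mt-Nd3, mt-Nd4, mt-Nd5, mt-Nd6, mt-Co1 and mt-Cytb. They are 10 of the 46078 genes in the count tables. The ribosomal and the protein-coding genes were set against each other because of their values in these same libraries, so the differences between the genotypes are given below as descriptions, without a test.

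Bulk RNA sequencing was done on growth plate cartilage of the distal femur and proximal tibia from mouse embryos at E18.5, with 3 control and 3 Idh1 mutant libraries. All 6 libraries came from the Idh1 LSL/+ genotype, a knock-in allele of Idh1 (R132Q in the study's methods) that stays silent behind a lox-stop-lox cassette. The mutants also carried Col2a1-Cre, which removes the cassette in cells that have used the Col2a1 promoter, while the controls had no Cre, so that the presence of Cre and of the mutant enzyme cannot be told apart. Cells of the dissected tissue that never used the Col2a1 promoter keep the silent allele in both groups. The text on animal care in the labels gives an age of 2 months, whereas the age field gives E18.5, which was used. The labels do not say whether the libraries of a group came from separate animals, and p-values then measure only the spread between these samples, although the study describes mutants and littermate controls.

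Each mitochondrial DNA strand is transcribed as a long precursor. Transfer RNAs lie between most of the genes, and their removal frees the ribosomal and messenger RNAs, a scheme known as tRNA punctuation. The ribosomal RNAs and all but 1 of the messengers are read from the same strand, and mt-Nd6 is read from the opposite strand. mt-Rnr1 encodes the 12S RNA of the small mitochondrial ribosomal subunit and mt-Rnr2 the 16S RNA of the large subunit, while the messengers encode subunits of the respiratory chain. Mitochondrial messengers carry short poly(A) tails and the ribosomal RNAs carry only very short ones, which bears on libraries such as these, in which RNA was captured on oligo-dT beads.

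mt-Rnr1 (chrM:70-1024) and mt-Rnr2 (chrM:1094-2675) are neighbours on the plus strand of GRCm38. They are separated only by mt-Tv, the transfer RNA for valine, and mt-Rnr2 is separated from the messenger mt-Nd1 (chrM:2751-3707) only by mt-Tl1, a transfer RNA for leucine. No base lies between these 5 genes. Both junctions are shown because they join the RNAs whose ratios differed between the groups, the first a ribosomal RNA with a ribosomal RNA and the second a ribosomal RNA with a messenger. The sequences were taken from the GENCODE M21 transcripts and run 5′ to 3′ on the plus strand, and the capitals mark the transfer RNA.
mt-Rnr1, mt-Tv and mt-Rnr2 (chrM:985-1133): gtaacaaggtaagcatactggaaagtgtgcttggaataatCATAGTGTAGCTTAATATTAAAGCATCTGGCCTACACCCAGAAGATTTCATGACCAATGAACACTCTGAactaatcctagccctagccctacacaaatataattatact
mt-Rnr2, mt-Tl1 and mt-Nd1 (chrM:2636-2790): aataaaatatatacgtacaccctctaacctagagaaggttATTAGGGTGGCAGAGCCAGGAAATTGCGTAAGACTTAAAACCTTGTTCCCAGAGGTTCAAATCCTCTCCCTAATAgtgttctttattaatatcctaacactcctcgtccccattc

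The libraries held between 23445687 and 30415773 counts, and 3 counts in a library, the limit taken for detection, corresponded to between 0.0986 and 0.128 CPM. CPM is the count scaled to the size of the library, corrected with edgeR's TMM factors. Xist and the Y-linked genes set mutant 3 apart from the rest, with 26356 counts of Xist and 0 counts of 4 Y-linked genes. Idh1 overlapped between the groups, with 37.2, 39.1 and 65.3 CPM in the controls, against 47.5, 47.7 and 56.3 CPM in the mutants (log2 fold change 0.10, SE 0.19, adjusted p = 0.940, edgeR). Among markers of the labelled tissue, Col2a1, the main collagen of cartilage, lay between 1921 and 5240 CPM. The 7 measured cartilage markers summed to between 3240 and 7153 CPM over the libraries, and 8 muscle markers to between 14443 and 22505 CPM, so that the tissue held more than cartilage. In such bulk samples, fewer cells of a type and less RNA per cell cannot be told apart.

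The 10 mitochondrial genes together took 2.17%, 2.73% and 1.75% of all counts in controls 1, 2 and 3, and 2.22%, 2.30% and 2.17% in mutants 1, 2 and 3. The mean share was 2.22% ± 0.491 (SD, n = 3) in the controls, against 2.23% ± 0.0658 (SD, n = 3) in the mutants. The mutants lay inside the range of the controls, and the difference of the means was 0.0113 percentage points. The 95% Wilson interval of a share reached at most 0.00596 percentage points to either side. Such intervals cover counting error only, since reads without molecular identifiers are not independent molecules. The share of counts on the 10 genes therefore differed by less than the spread between the control libraries.

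Inside this total, the ribosomal RNAs took a larger part in the mutants. They held 0.0758%, 0.0990% and 0.0642% of all counts in control libraries, with 0.116%, 0.118% and 0.110% in mutant libraries, and every mutant was above every control. The 8 messengers held 2.14% ± 0.474 of all counts in control libraries, with 2.12% ± 0.0623 in mutant libraries (SD, n = 3), with overlapping groups. These shares rest on the plain counts, before any scaling between libraries.

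mt-Rnr1 (ENSMUSG00000064337), the 12S ribosomal RNA, was measured at 285, 363 and 277 CPM in controls 1, 2 and 3, against 555, 520 and 507 CPM in mutants 1, 2 and 3. The lowest mutant was well above the highest control. The means were 308 ± 47.4 CPM and 527 ± 25.2 CPM (SD, n = 3), a ratio of 1.71, and the log2 fold change in edgeR's fit over all genes was 0.77 (SE 0.12).

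mt-Rnr2 (ENSMUSG00000064339), the 16S ribosomal RNA, was measured at 460, 618.5 and 388 CPM in the controls, against 594, 652 and 600 CPM in the mutants. Control 2 lay between the mutants, so the groups overlapped. The log2 fold change was 0.33 (SE 0.15), and it was 0.54 without control 2 and 0.19 without control 3. The groups were thus separated in CPM for the small subunit RNA and not for the large subunit RNA, its neighbour on the precursor.

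Of the 10 genes, all 10 passed the filter on low counts, and 1, mt-Rnr1, passed an adjusted p of 0.05 (edgeR's quasi-likelihood test, adjusted by the Benjamini-Hochberg method over 16813 genes). The background was 0.19% of all tested genes, and 0.0535% in the direction of higher mutants. This call is the one the genes were chosen on, and nothing is read from it. It was not kept when the replicate number of the labels was added as a block, nor with a covariate for the library without Y-linked counts, and among the fits that left out 1 library it was kept only without control 2. mt-Rnr1 was also the 1 member of 10 whose groups did not overlap in CPM, against 14.4% of all tested genes (6.85% with the mutants higher).

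**Figure D1:**
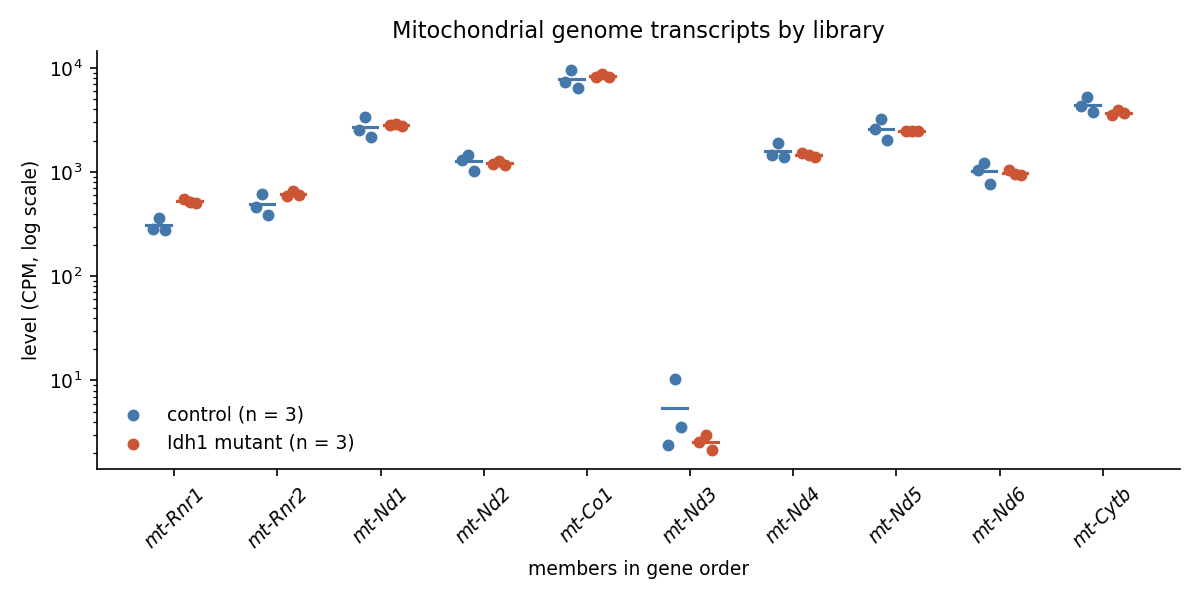
Level of the 10 mitochondrial genes in each of the 6 libraries, in CPM on a log scale, with genes in their order on the chromosome. Points are libraries and short lines are group means (n = 3). The mt-Rnr1 points of the mutants (507 to 555 CPM) lie above those of the controls (277 to 363 CPM), and the groups overlap for each of the other 9 genes.

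The first 2 messengers downstream of the ribosomal RNAs encode subunits of complex I, the NADH dehydrogenase. mt-Nd1 was measured at 2521, 3414 and 2151 CPM in the controls, against 2857, 2883 and 2794 CPM in the mutants (log2 fold change 0.078, SE 0.16). mt-Nd2 (chrM:3914-4951) was measured at 1318, 1473 and 1024 CPM in the controls, against 1209, 1285 and 1165 CPM in the mutants (-0.060, SE 0.14). In both, all 3 mutants lay within the range of the controls. A difference of the size measured at mt-Rnr1 was not seen on the messenger side of the mt-Tl1 junction.

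mt-Co1 (chrM:5328-6872) encodes a catalytic subunit of complex IV, the cytochrome c oxidase, and had the most counts of the 10. It was measured at 7274, 9607 and 6385 CPM in the controls, against 8269, 8680 and 8162 CPM in the mutants (log2 fold change 0.11, SE 0.17). The mutants again lay between the lowest and the highest control.

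mt-Nd4 (chrM:10167-11544) and mt-Nd5 (chrM:11742-13565) encode further membrane subunits of complex I. mt-Nd4 was measured at 1472, 1894 and 1400 CPM in the controls, against 1523, 1464 and 1397 CPM in the mutants (log2 fold change -0.12, SE 0.13). mt-Nd5 was measured at 2614, 3204 and 2036 CPM in the controls, against 2470, 2475 and 2501 CPM in the mutants (-0.077, SE 0.16). The 3 mutants were almost equal for mt-Nd5, with an SD of 16.4 CPM against 584 CPM in the controls.

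mt-Nd6 (chrM:13552-14070, minus strand), another subunit of complex I, was measured at 1043, 1234 and 766 CPM in the controls, against 1037, 956 and 948 CPM in the mutants (log2 fold change -0.049, SE 0.16). The library kit kept the strand, but the counting ignored it. Reads of mt-Nd6 and reads of RNA antisense to it, such as the far end of plus-strand precursors, therefore cannot be told apart. Its count followed that of mt-Nd5, its neighbour on the plus strand, at 399, 385 and 376 per 1000 mt-Nd5 counts in control libraries, with 420, 386 and 379 in mutant libraries, and the groups overlapped.

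mt-Cytb (chrM:14145-15288) encodes cytochrome b, the mitochondrially encoded subunit of complex III, and is the last messenger on the plus strand. It was measured at 4303, 5276 and 3767 CPM in the controls, against 3512, 3960 and 3686 CPM in the mutants. Mutant 2 lay above control 3, so the groups overlapped, and the log2 fold change of -0.26 (SE 0.14) moved to -0.11 without control 2. Together, 6 of the 8 messengers had a log2 fold change below 0 and 2 above it. Their median was -0.068, beside -0.0026 over all 16813 tested genes.

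mt-Nd3 (chrM:9459-9806), a small subunit of complex I, stood apart by its level. It was measured at 2.41, 10.3 and 3.57 CPM in the controls, against 2.58, 3.003 and 2.13 CPM in the mutants, from 68, 315 and 99 counts in the controls, against 61, 74 and 62 counts in the mutants. Control 2 alone was far above the rest. The log2 fold change was -1.08 (SE 0.47), and without control 2 it was -0.22. Most of its sequence is shared with a nuclear copy.

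**Figure D2:**
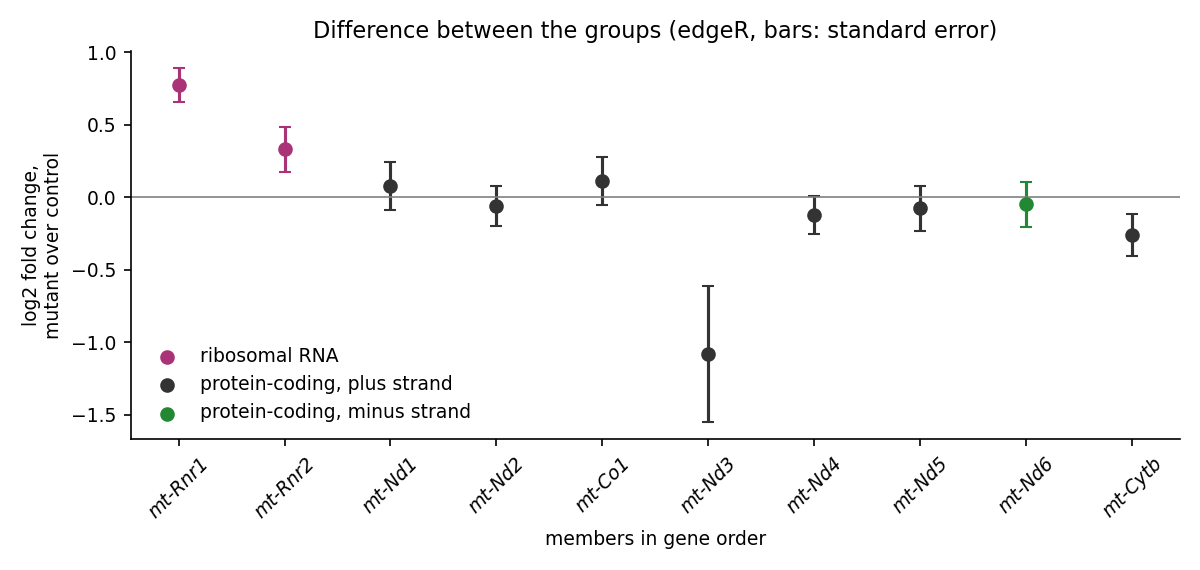
Log2 fold change of mutants over controls for the 10 genes in chromosome order, from edgeR's fit over all genes, with the standard error as bars. mt-Rnr1 is at 0.77 and mt-Rnr2 at 0.33, 7 of the messengers lie between -0.26 and 0.11, and mt-Nd3 is at -1.08 with the widest bar.

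Control libraries varied more than mutant libraries in each of the 10 genes. Control 2 was the highest of the 6 libraries for all 8 messengers, and control 3 was the lowest of the 6 for 5 of the 8. These levels therefore rose and fell together from library to library within the control group. A ratio of counts within a library removes this shared movement and does not depend on any scaling between libraries.

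The ratio of ribosomal to messenger counts was 36.2, 37.6 and 38.0 per 1000 in controls 1, 2 and 3 and 55.1, 54.0 and 53.6 per 1000 in mutants 1, 2 and 3. Each group was tight, with means of 37.3 ± 0.910 and 54.2 ± 0.777 (SD, n = 3), and no control came near a mutant. The log2 difference was 0.54 (SE 0.024), a ratio 1.45 times as high in the mutants. Leaving out each library in turn gave between 0.52 and 0.55. Without mt-Nd6, the gene on the opposite strand, the log2 difference was also 0.54.

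Both ribosomal RNAs contributed. mt-Rnr1 was at 13.9, 13.9 and 15.8 per 1000 messenger counts in control libraries, with 26.6, 23.95 and 24.5 in mutant libraries, a log2 difference of 0.79 (SE 0.078). mt-Rnr2 was at 22.4, 23.7 and 22.2 per 1000 messenger counts in control libraries, with 28.5, 30.03 and 29.03 in mutant libraries, a log2 difference of 0.36 (SE 0.038). The groups did not overlap in either, so that mt-Rnr2, which overlapped in CPM, was separated once set against the messengers. Of 16805 tested genes set against the same messenger counts, 6.98% did not overlap, and 3.37% did so with the mutants higher.

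The ribosomal RNAs also differed from each other. mt-Rnr1 stood at 619, 587 and 714 counts per 1000 counts of mt-Rnr2 for the control libraries, and 934, 798 and 845 for the mutant libraries. The spread was wider here, and the lowest mutant exceeded the highest control by less than the range of either group. The log2 difference was 0.43 (SE 0.11). Such separation was common among all tested genes, at 23.8% when set against mt-Rnr2 and 80.4% when set against mt-Rnr1.

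In all, 45 pairs can be formed from the 10 genes, which share members and libraries and so are not independent. The groups did not overlap in all 16 pairs of a ribosomal RNA with a messenger, with the ribosomal RNA always relatively higher in the mutants. Set against mt-Rnr1, 80.4% of all tested genes had groups that did not overlap, so that its pairs describe mt-Rnr1 more than its partners. Set against mt-Rnr2, the share was 23.8%, and all 9 pairs of mt-Rnr2 with another member did not overlap. The tightest pair was mt-Rnr1 with mt-Nd4, where the log2 ratio had an SD of 0.025 among the controls and 0.020 among the mutants, and the groups differed by 0.89.

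Among the 28 pairs of messengers, the groups did not overlap in 9. mt-Cytb and mt-Co1 took part in 4 each, and mt-Nd3 and mt-Nd6 in none. mt-Cytb stood at 592, 549 and 590 counts per 1000 counts of mt-Co1 for the control libraries, and 425, 456 and 452 for the mutant libraries, a log2 difference of -0.38 (SE 0.048). Against mt-Nd1 it fell from 1668 ± 108 to 1307 ± 72.9 per 1000 (SD, n = 3), a log2 difference of -0.35. As a share of all counts on the 10 genes, mt-Cytb made up 20.1% ± 0.618 for the control libraries, and 16.7% ± 0.708 for the mutant libraries, and mt-Co1 34.9% ± 0.667 and 37.7% ± 0.2425. The messengers overlapped as a sum, while the parts taken by mt-Cytb and mt-Co1 differed between the groups in these libraries. Set against mt-Cytb, 23.3% of all tested genes did not overlap, set against mt-Co1, 8.59%, and set against mt-Nd1, 6.86%.

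**Figure D3:**
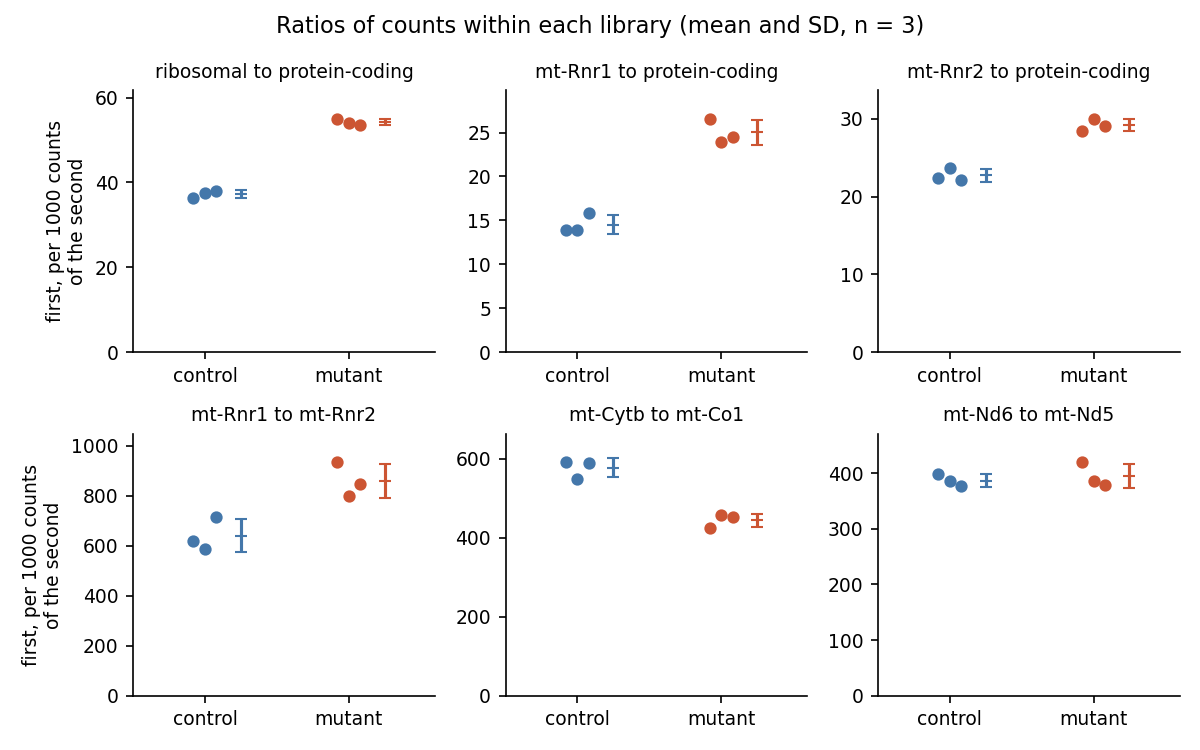
Ratio of counts within each library, as counts of the first named per 1000 counts of the second, with 1 point per library and the mean and SD of each group beside it (n = 3). The axes start at 0. The mutants lie above the controls in the 4 ratios that have a ribosomal RNA on top and below them for mt-Cytb to mt-Co1, and the groups overlap for mt-Nd6 to mt-Nd5.

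Per kilobase of gene length, the order over the mean of all 6 libraries was mt-Co1 (5219 CPM per kb), mt-Cytb (3570), mt-Nd1 (2895), mt-Nd6 (1922), mt-Nd5 (1398), mt-Nd2 (1200), mt-Nd4 (1107), mt-Rnr1 (437), mt-Rnr2 (349) and mt-Nd3 (11.5). The ranges over the libraries overlapped between all neighbours in this order except mt-Nd4 and mt-Rnr1, and mt-Rnr2 and mt-Nd3. Inside each library the order was nonetheless nearly constant, and only mt-Nd2 with mt-Nd4 and mt-Rnr1 with mt-Rnr2 changed places, each in 1 library of 6. The ribosomal RNAs thus lay below 7 of the 8 messengers on this scale, in libraries made by poly(A) capture. By mean CPM, without regard to length, mt-Co1 ranked 7 and mt-Cytb 13 among all 46078 genes, and mt-Rnr2 and mt-Rnr1 ranked 168 and 249.

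This order also depends on which reads could be counted. Nuclear chromosomes hold copies of mitochondrial DNA, and a read that matches both places is left out of the counts, since only reads with a single position were counted. The reads were 50 bases long, so the windows of 50 bases in each gene that also occur in another annotated transcript were counted. mt-Rnr1, mt-Nd1, mt-Nd6 and mt-Cytb shared none of their windows, mt-Rnr2 shared 1.04%, mt-Nd5 7.61% and mt-Nd2 8.19%. mt-Co1 shared 51.1% and mt-Nd4 62.2%, and mt-Nd3 shared 98.0%, which left it 6 windows of 299.

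The copies of mt-Nd3 and mt-Nd4 and part of those of mt-Co1 lie on chromosome 1, where a row of annotated pseudogenes runs from 24611535 to 24616197 on the minus strand. Gm28438 copies mt-Nd3 over 345 bases and differs from it by T3C, counted from 1 at the first base of mt-Nd3, with the mitochondrial base first. Gm28439 copies 876 bases of mt-Nd4 with no difference, and Gm29216 copies the last 492 bases of mt-Co1 with 6 differences. The start of mt-Nd3 and of its copy is shown because windows that hold this base are unshared, as are those that reach past the last base of the copy. The capital marks the base, and both run 5′ to 3′ on the strand of the gene.
mt-Nd3 (chrM:9459-9491, plus strand): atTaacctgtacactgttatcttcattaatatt
Gm28438 (chr1:24613087-24613119, minus strand): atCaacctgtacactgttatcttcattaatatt

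The counts of the mt-Nd3 copy were low in every library, at 5, 4 and 7 for the control libraries, and 2, 4 and 7 for the mutant libraries. The messengers outside the 10 genes showed the same pattern in a more extreme form. mt-Co2, mt-Atp6, mt-Co3 and mt-Nd4l, which shared between 98.8% and 100% of their windows, had at most 12 counts in any library. mt-Atp8, a small subunit of the ATP synthase, also had at most 1 count in any library although 0% of its windows were shared with an annotated transcript. Copies outside the annotated transcripts were not examined, since no genome sequence was used here. Levels of mt-Nd3, and to a lesser degree of mt-Nd4 and mt-Co1, are therefore lower limits.

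**Figure D4:**
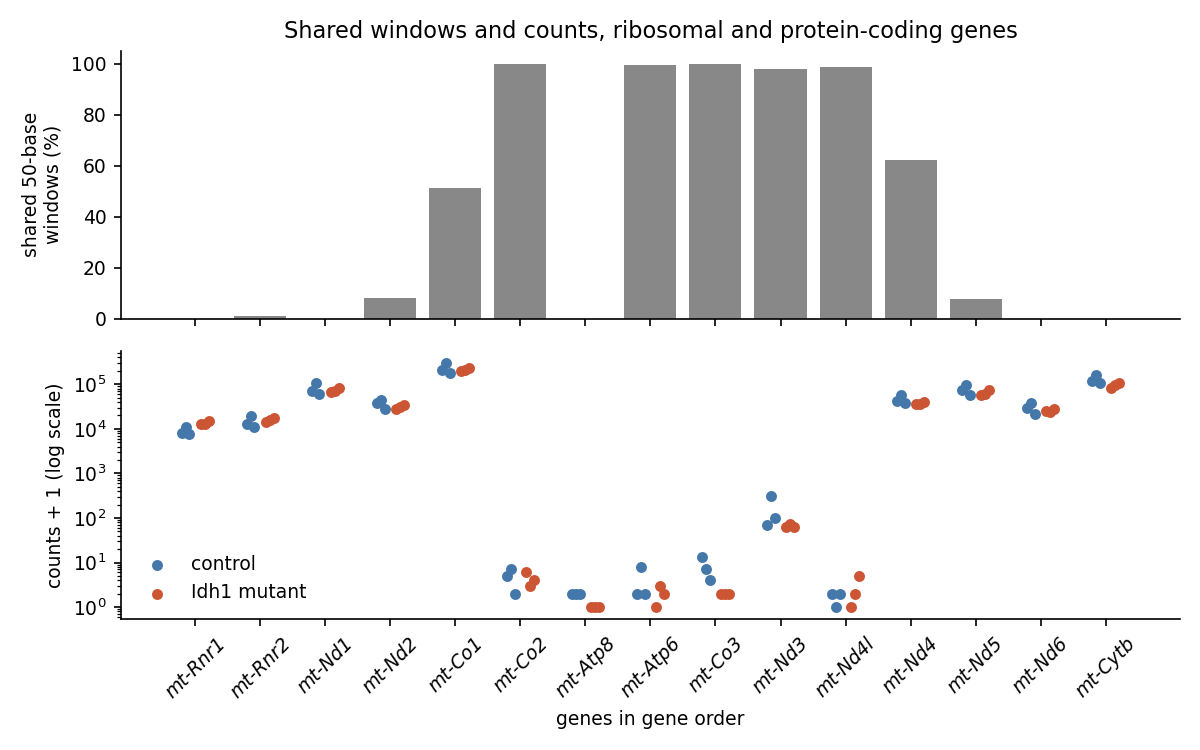
Top, percentage of each gene's 50-base windows that also occur in another annotated transcript, for the ribosomal and protein-coding genes in chromosome order. Bottom, counts plus 1 in each library on a log scale. The 4 genes with at least 98.8% shared windows and mt-Atp8 have at most 12 counts in a library, and mt-Nd3, with 98.0% shared, has between 61 and 315.

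When the level was set per 1000 unshared windows in place of gene length, mt-Nd4 moved from rank 7 to rank 4 and mt-Nd3 from 10 to 8. mt-Co1, mt-Cytb and mt-Nd1 kept the first 3 ranks. Over the 5 messengers with under 10% shared windows, the ratio of ribosomal to messenger counts was 66.2 ± 2.75 per 1000 for the control libraries, and 102 ± 2.01 per 1000 for the mutant libraries (SD, n = 3), a log2 difference of 0.62. The difference thus kept its direction without the messengers that have many shared windows. It was larger than the 0.54 over all 8 messengers, so its size depended on which messengers were counted.

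Transfer RNAs are short and carry no poly(A) tail. Of the 22 transfer RNA genes, 9 had 0 counts in every library, and 21 had at most 37 counts in any library. mt-Tp, the transfer RNA for proline on the minus strand, was the exception, with 1026, 1460 and 835 counts in the controls, against 985, 976 and 1042 counts in the mutants. The groups overlapped (log2 fold change 0.037, SE 0.15). Because the counting ignored the strand, reads of mt-Tp, of longer precursors and of RNA antisense to it cannot be told apart.

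Since the libraries were captured by poly(A), base content was compared between the members. The longest run of A inside mt-Rnr1 had 5 bases and that inside mt-Rnr2 had 7, and the messengers had longest runs of between 3 bases (mt-Nd6) and 8 bases (mt-Nd2). A made up 37.8% of mt-Rnr1 and 38.2% of mt-Rnr2, more than in any of the 8 messengers, where it lay between 22.2% in mt-Nd6 and 36.9% in mt-Nd2. The stretches around the longest runs of the ribosomal RNAs are shown, with the run in capitals. Whether oligo-dT captured RNA at such runs was not tested.
mt-Rnr1 (chrM:680-734): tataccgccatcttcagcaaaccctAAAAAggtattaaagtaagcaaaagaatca
mt-Rnr2 (chrM:1463-1519): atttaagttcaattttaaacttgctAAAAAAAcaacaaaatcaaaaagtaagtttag

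Other RNAs without a long poly(A) tail were then examined. Rn18s-rs5, a copy of the cytosolic 18S ribosomal RNA, was at 17153, 7267 and 17170 CPM in the controls, against 13779, 10251 and 14048 CPM in the mutants. It overlapped between the groups (log2 fold change -0.13, SE 0.30, adjusted p = 0.954, edgeR) and was lowest in control 2. Gm26917, another gene of this list, was at 387, 1595 and 702 CPM in the controls, against 719, 866 and 676 CPM in the mutants. Its groups overlapped too (log2 fold change -0.25, SE 0.40), but it was highest in control 2. The 61 measured genes of replication-dependent histones summed to between 68.6 and 72.8 CPM in the controls, against between 65.2 and 88.1 CPM in the mutants. Most of this sum came from Hist1h1c and Hist1h2bc (control means 32.0 and 16.8 CPM), and 17 of the 61 genes passed the filter on low counts. Whether the counted histone RNAs lacked a tail was not tested. Of 22 tested genes of RNAs without a tail, 0 passed the adjusted p of 0.05 in edgeR, in DESeq2 or in limma-voom, 1 had an unadjusted p under 0.05, and the median log2 fold change was -0.053. The part of poly(A) capture in the ribosomal ratio was not tested.

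**Figure D5:**
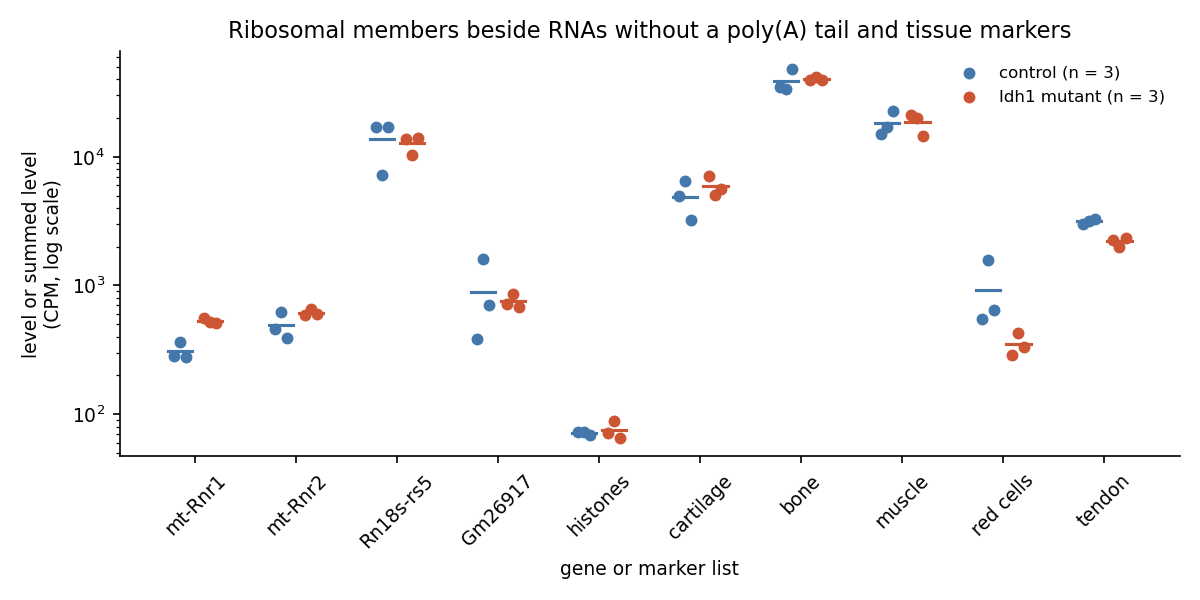
Level or summed level in CPM on a log scale for the ribosomal members, for RNAs without a poly(A) tail (Rn18s-rs5, Gm26917, histones) and for summed tissue markers, with 1 point per library and lines at the group means (n = 3). The groups overlap for Rn18s-rs5, Gm26917, histones, cartilage, bone and muscle, and the mutants lie below the controls for red cells and tendon.

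Nuclear genes make the machinery that transcribes, cuts, modifies and degrades these RNAs. Of 60 gene names listed for this machinery, 55 were found and tested, and 0 passed an adjusted p of 0.05 in edgeR, DESeq2 or limma-voom, which called 0.19%, 1.15% and 0.113% of all tested genes. The count at an unadjusted p under 0.05 was 3 of 55, or 1452 of all 16813 tested genes (8.64%). The median log2 fold change of the 55 genes was 0.073, with 39 above 0.

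Of the 9 genes of transcription, 0 passed the threshold. Polrmt, the mitochondrial RNA polymerase, was at 22.8, 21.2 and 24.9 CPM in the controls, against 25.4, 24.4 and 22.99 CPM in the mutants, and Tfam, which packages the genome and opens its promoters, differed by a log2 fold change of -0.064 (SE 0.10). Tfb2m, the factor that melts the promoter for the polymerase, had the lowest p of the list. It was at 8.27, 12.3 and 13.1 CPM in the controls, against 6.99, 7.43 and 7.57 CPM in the mutants, with each mutant below each control (log2 fold change -0.61, SE 0.17, adjusted p = 0.326, edgeR). It passed the threshold in 1 alternative fit, the one without a filter on low counts.

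Among the 8 genes known to handle the 12S RNA, the product of mt-Rnr1, the median log2 fold change was 0.094, and among the 11 tested for the 16S RNA it was 0.12. Tfb1m, the methyltransferase that marks the 12S RNA, differed by 0.012 (SE 0.16). Rbfa, which helps the small subunit mature, was at 25.5, 28.2 and 25.2 CPM in the controls, against 29.4, 31.2 and 29.8 CPM in the mutants (log2 fold change 0.20, SE 0.086, adjusted p = 0.567, edgeR). Rnaseh1, which removes RNA from hybrids with DNA and is needed to copy the mitochondrial genome, was at 14.5, 13.9 and 11.8 CPM in the controls, against 16.6, 16.1 and 15.97 CPM in the mutants (log2 fold change 0.28, SE 0.11, adjusted p = 0.519, edgeR). In both, every mutant lay above every control, by amounts much smaller than in mt-Rnr1. Of the 8 genes for the 12S RNA, 2 were separated in this direction and 1 in the opposite direction. Over all 55 genes of the machinery, 6 were separated with the mutants higher and 3 with the mutants lower. Among all tested genes, 14.4% did not overlap in either direction.

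The 11 genes of messenger stability and decay had a median log2 fold change of 0.058, and the 7 genes that cut the precursor had a median of 0.0069. Both RNA modifiers of the list that use 2-oxoglutarate, the substrate that mutant Idh1 consumes, had log2 fold changes between 0.031 and 0.12. None of the genes in these 3 lists had an unadjusted p under 0.05.

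A further list held genes of mitochondrial biogenesis and mass, such as Ppargc1a, the citrate synthase Cs and the porins. Of 21 tested, 0 passed the threshold in edgeR, 1 had an unadjusted p under 0.05, and the median log2 fold change was 0.020. The 3 with the lowest p were Hspa9, a chaperone of the mitochondrial matrix (log2 fold change 0.22, SE 0.089), Clpp, a matrix protease (-0.14, SE 0.079), and Hspe1, a co-chaperone (0.13, SE 0.077).

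Summed markers of other tissues were separated between the genotypes in a pair of lists. The 6 red cell genes summed to 550, 1589 and 643 CPM in the controls, against 290, 429 and 330 CPM in the mutants. Of the 6, 5 were lower in every mutant than in every control. Each of the 6 had an unadjusted p under 0.05, and 0 passed the adjusted threshold in edgeR. Among all tested genes, 14.4% had groups that did not overlap in either direction. In edgeR, 8.64% of all tested genes had an unadjusted p under 0.05, and 0.19% passed the adjusted threshold. The 5 tendon genes summed to 2989, 3152 and 3285 CPM in the controls, against 2258, 2002 and 2339 CPM in the mutants, and 1 of them, Tnmd, passed the threshold (log2 fold change -0.81, SE 0.12, adjusted p = 0.0374, edgeR). Red cells shed their mitochondria as they mature. Muscle markers, which accompany a tissue rich in mitochondria, summed to between 15086 and 22505 CPM in the controls, against between 14443 and 20983 CPM in the mutants, with overlapping groups. The 8 bone markers overlapped as a sum, but nearly all of that sum was Col1a1 (log2 fold change 0.010, SE 0.19). The log2 fold changes were above 0 in all 8, with a median of 0.57 and 0 past the adjusted threshold. Of the 8, 2 had an unadjusted p under 0.05 in edgeR. Dmp1 was the 1 bone marker higher in every mutant than in every control (log2 fold change 1.75, SE 0.69). The part of the red cell, tendon and bone lists in the ribosomal ratio was not tested. In control 2, whose red cell sum was the highest, the ratio of ribosomal to messenger counts was 37.6 per 1000, between controls 1 and 3. That value comes from 1 library, and the red cell sum was lower in every mutant than in every control. No conclusion about red cells is therefore drawn from it.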

How the data were processed

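Libraries of growth plate cartilage were made by oligo-dT capture of RNA and read from 1 end over 50 bases. The authors trimmed the reads with Trim Galore 0.6.4, mapped them to GRCm38 with STAR 2.6.1d and counted them per gene with featureCounts 1.6.4, per the file headers without regard to strand and without reads that mapped to several places. The deposited values are whole-number counts per gene, without normalization, and every column of sample values was used (0 unused). Groups were taken from the sample titles.

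These counts were analysed in R 4.3.3 with edgeR 4.0.16, after filterByExpr at its defaults (10 as the minimum count and 15 in total), with TMM factors between 0.964 and 1.02 and the quasi-likelihood test over 16813 genes. The common dispersion was 0.0173. Adjusted p-values use the Benjamini-Hochberg method with a threshold of 0.05. Ratios of counts were formed within each library. Windows of 50 bases were compared with all other GENCODE M21 transcripts on both strands. Alternatives were DESeq2 1.42.0, limma-voom (limma 3.58.1), upper-quartile factors, scaling without mitochondrial genes, other filters, a replicate block, a covariate for the library without Y-linked counts, and each library left out. Windows unshared with other transcripts were added as an alternative after the data were seen. No libraries of a group were repeats within sampling noise (chi-square over degrees of freedom from 11.5 to 45.5).

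The 10 genes and the lists were chosen with earlier results of these data known. The named genes are the 10, the other genes of the mitochondrial chromosome, their annotated copies, up to 5 genes per list and direction past the threshold, the 3 with the lowest p where none passed, and the 5 genes with the profile nearest to mt-Rnr1. Others, such as Polrmt, Tfam and Tfb1m, were named for their role after their values were seen. On simulated counts of 16593 genes with 200 changed, edgeR recovered 187 (93.5%) with 13 false calls. The simulation gave every gene the common dispersion and planted changes larger than that of mt-Rnr1. It therefore does not give the recovery of smaller differences or of genes that vary more. Figures were drawn with matplotlib 3.10.9.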

Additional observations from a re-analysis of the deposited data

How the results depend on the processing

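Over all genes, 32 passed the threshold in edgeR, 193 in DESeq2, 19 in limma-voom, 259 without a filter on low counts, 3 with the replicate block and 6 with the Y-linked covariate, and between 3 and 17 with 1 library left out. Among the 10 mitochondrial genes the count was 1, and it was 0 with the replicate block and with the covariate (mt-Rnr1 log2 fold change 0.78 and 0.80) and between 0 and 1 with 1 library left out (0.71 to 0.91). mt-Rnr1 passed in 6 of 8 other settings and in 1 of 6 fits without a library, the one without control 2. Such fits had fewer samples. Deviations of same-numbered libraries from their group means had correlations of -0.16, -0.0068 and -0.15 for numbers 1, 2 and 3. The highest correlation of a control with a mutant was 0.20, for control 3 with mutant 1. With 3 libraries in each group, these values cannot decide whether libraries were paired. The study's own bulk analysis used litter beside genotype. The labels do not give the litter, so the fits here left it out, and a pairing under other numbers was not accounted for. Expression factors past the threshold numbered 0, and 1 (Tfb2m) without the filter. The sign turned without control 3 for mt-Nd1 and mt-Co1 and without control 2 for mt-Nd2, mt-Nd4, mt-Nd5 and mt-Nd6. With 1 library left out, the log2 fold change ran from -0.058 to 0.29 for mt-Nd1, -0.0089 to 0.30 for mt-Co1, -0.19 to 0.063 for mt-Nd2, -0.20 to 0.029 for mt-Nd4, -0.23 to 0.098 for mt-Nd5 and -0.21 to 0.12 for mt-Nd6. The other members kept their sign in every setting. With mean log2 levels in place of summed counts, the ribosomal to messenger log2 difference of 0.54 was 0.70. Such means weigh mt-Nd3 (log2 fold change -1.08) as much as any other messenger. The ribosomal to messenger log2 difference was 0.79 for mt-Rnr1 alone, 0.36 for mt-Rnr2 alone and 0.62 over messengers with few shared windows. With same-numbered libraries paired as a block it was 0.54, with an SD of 0.056. The log2 difference of mt-Rnr1 to mt-Rnr2 lay between 0.36 and 0.51 with 1 library left out, and the share of all counts between -0.22 and 0.27 percentage points. Per unshared window, 3 of 10 genes kept their rank. Positions occurring once in the genome were not run, since no genome sequence was used. Depth limits mt-Nd3, with 61 to 315 counts.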

Other observations

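The profile of mt-Rnr1 over the 6 libraries was compared with that of 7873 genes outside the mitochondrial chromosome with a mean of at least 20 CPM, as the root-mean-square difference between centred log2(CPM + 0.5) values. The 5 nearest genes were Csf2ra (0.13), Wsb1 (0.13), Sned1 (0.17), P4ha2 (0.17) and Csgalnact1 (0.17). Csf2ra, a subunit of a cytokine receptor, was at 20.97, 24.1 and 20.8 CPM in the controls, against 33.5, 31.2 and 31.8 CPM in the mutants. P4ha2, a prolyl hydroxylase of collagen, was at 194, 203 and 169 CPM in the controls, against 266, 273 and 325 CPM in the mutants. These 5 genes did not pass an adjusted p of 0.05 in edgeR. mt-Rnr2 was at a distance of 0.24, and the 8 messengers were at distances between 0.34 and 0.88. The nearness is a description over 6 libraries, and genes with a like difference between the groups come out near by construction.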
